A study of Mus musculus with 2 samples.

Results

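Bright RefSeq noncoding transcripts were the array probes designed to a RefSeq NR_ record, the accession class of curated transcripts without an annotated protein. They were chosen by their signal, as non-control probes that the scanner software called well above background on both arrays and whose mean scaled signal over the arrays was -1 or higher. The scaled signal is the log2 processed signal minus the 75th percentile of the array's non-control spots, so that 0 marks a spot as bright as that percentile. Of 56605 non-control probes 2477 had an NR_ accession, 961 of these were well above background on both arrays and 307 were bright enough, covering 284 gene names. The members were selected on the same signals that are compared here, so the levels and differences are given as descriptions. Splenic monocytes of ICR mice, an outbred stock, were collected 8 weeks after surgery, which was either a sham procedure or the removal of most of the kidney tissue (5/6 nephrectomy, 5/6Nx). CD11b and Ly6C antibodies marked the cells for flow cytometry, and no other agent or genotype is labelled in either group. There was 1 array per group, and neither the number of mice behind each RNA nor their sex and age is given in the sources used here. No difference below has a replicate check, and differences are 5/6Nx minus sham in log2 units.

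Noncoding transcripts fall into families that work in different ways. Structured RNAs such as the spliceosomal RNAs, RNase P RNA and the 7SL RNA act as parts of ribonucleoprotein machines, while long noncoding RNAs can scaffold nuclear bodies, silence imprinted regions or carry small nucleolar RNAs and microRNAs in their introns and exons. Many other NR_ records are transcribed pseudogenes or noncoding isoforms of coding genes. In myeloid cells microRNA-223 and its host transcript are known as products of the granulocyte and monocyte lineages, and several long noncoding RNAs are known to be induced by interferon or bacterial products.

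The mature microRNAs of the hosts that were at least 2-fold apart are printed first, with the seed (bases 2 to 8) in capitals, since the host transcript is what the array measured. They come from RefSeq, build GRCm38.p6, and the arms printed are those usually taken as the main product of each hairpin. The first lies on chromosome X, the next on chromosome 11, then 14 and 4, all on the strand of their host.
miR-223-3p (host F630028O10Rik): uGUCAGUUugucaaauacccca
miR-22-3p (host Mir22hg): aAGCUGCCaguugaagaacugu
miR-16-5p (host Dleu2): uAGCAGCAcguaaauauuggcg
miR-101a-3p (host E130102H24Rik): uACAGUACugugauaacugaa
These 4 seeds differ from each other. The seed of miR-16-5p is shared by 11 mature entries of RefSeq, among them miR-15a-5p and miR-195a-5p, and each of the other seeds belongs to a single entry.

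Probes of 60 bases carried the largest differences, and their sequences, from the array files on build mm9, are printed to show which stretch of each transcript was read. Capitals in Rprl2 and Rprl3 mark a run of 16 bases that these related probes share, with a further shared run a few bases later in lower case, and capitals in Gpr137b-ps and Gpr137b mark the 46 bases shared by a pseudogene probe and the probe of its coding parent. Rprl3 has no position in the files.
AW112010, chr19:11122349-11122408, minus strand: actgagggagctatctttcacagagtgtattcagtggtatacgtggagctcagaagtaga
8430430B14Rik, chr17:84412679-84412738, plus strand: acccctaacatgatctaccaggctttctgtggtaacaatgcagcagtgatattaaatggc
H2-Q5, chr17:35532392-35532451, plus strand: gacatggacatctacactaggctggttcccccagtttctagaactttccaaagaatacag
Rpph1, chr14:51427130-51427189, minus strand: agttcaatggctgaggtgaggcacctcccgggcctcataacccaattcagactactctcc
Rprl2, chr3:22150423-22150482, plus strand: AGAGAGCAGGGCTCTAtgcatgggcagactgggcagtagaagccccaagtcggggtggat
Rprl3: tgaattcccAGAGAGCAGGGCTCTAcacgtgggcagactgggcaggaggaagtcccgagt
Rmrp, chr4:43505692-43505751, minus strand: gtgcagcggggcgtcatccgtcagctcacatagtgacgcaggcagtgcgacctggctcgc
Gpr137b-ps, chr13:12707412-12707471, minus strand: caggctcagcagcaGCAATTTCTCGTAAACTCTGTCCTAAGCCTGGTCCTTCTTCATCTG
Gpr137b, chr13:13450956-13451015, minus strand: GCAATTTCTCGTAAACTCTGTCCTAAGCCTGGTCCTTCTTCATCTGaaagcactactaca

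Of the 307 probes 28 (9.12%) were higher after 5/6Nx by 2-fold or more and 31 (10.1%) were lower by as much. Among all 16400 non-control probes that met the same brightness rule, 9.15% were higher and 11.2% lower, so the noncoding probes had shares near the background in both directions. The shares were 9.1% and 12.4% over 11658 bright probes with an NM_ accession, the class of coding transcripts, and 12.2% and 8.64% over the 961 NR_ probes of any brightness. Their median difference was -0.09, with the middle 50% of probes between -0.53 and 0.44, against a median of -0.20 over all bright probes and -0.24 over the bright NM_ probes. Differences of at least 4-fold were seen upward in 11 probes and downward in 6. The split depended on how the arrays were set level. With median scaling 24 were higher and 41 lower, with loess 38 and 19, and with the spike-in controls 58 and 14. All bright probes moved with it, from a median of -0.35 with median scaling to 0.23 with spike-in scaling, and the noncoding median stayed between 0.0998 and 0.115 above that of all bright probes in the 8 scalings and signals tried. Under all 8, 23 probes were higher and 14 were lower.

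**Figure D1:**
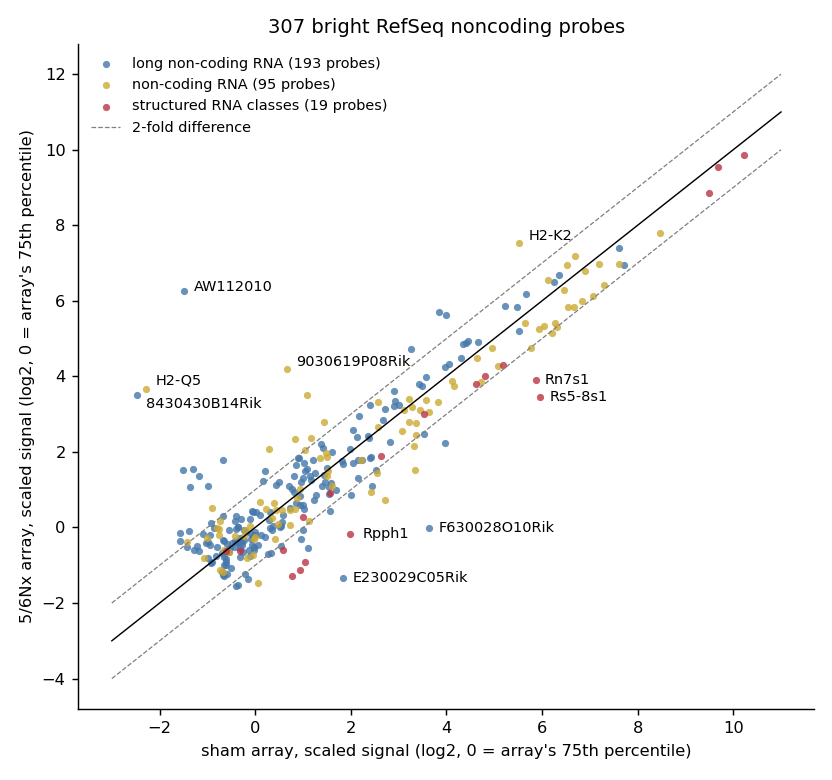
Scaled signal (log2, 0 = 75th percentile of the array) of 307 bright RefSeq noncoding probes on the sham array (x axis) and the 5/6Nx array (y axis), coloured by transcript class, 1 point per probe, with dashed lines at a 2-fold difference. Most points lie between the dashed lines, AW112010, 8430430B14Rik and H2-Q5 lie far above them, and all 19 structured RNAs lie below the diagonal.

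Marker genes of the cells that the sort could hold were read with the brightest measured probe of each gene, here and for the protein lists below. Over 21659 names with a probe of another accession, read in the same way, 11.8% were at least 2-fold higher and 9.76% lower. All 14 monocyte markers were measured on both arrays, with 7 at least 2-fold higher, 2 lower and summed signals, in units of the array's 75th percentile, of 1315 and 1693. Itgam, which encodes CD11b, differed by -0.35, Ly6c2 by 1.98 and Cx3cr1, a receptor of nonclassical monocytes, by -4.24. Of the other monocyte markers Ccr2 differed by -0.89 and Treml4 by -1.70, while Nr4a1 differed by 2.07 and Spn by 1.04. Of 15 T cell markers 13 were measured on both arrays, 11 of them at least 2-fold higher, and their summed signals were 7.88 (sham) and 71.6 (5/6Nx). Cd8a and Themis were not above background on the sham array. Of 12 NK cell markers 6 were measured, all at least 2-fold higher, with sums of 0.877 and 73.6, and the other 6, Ncr1 and Klrb1c among them, were not above background on the sham array. All 9 measured interferon-stimulated genes were higher, with sums of 6.64 and 937. Of 9 platelet and erythroid markers 5 were measured, with sums of 409.6 and 28.2, and the platelet genes Pf4, Ppbp and Treml1 were lower, by -4.30, -2.62 and -3.80, while Gp9 differed by -0.35 and the erythroid gene Hba-a1 by 2.70. Neutrophil marker sums were 273 and 316 over 7 measured of 12, most of it from Csf3r, at 0.25, and Ltf, Ngp and Retnlg were not above background on either array. The sums were 3.49 and 5.87 for B cells (9 measured of 12), 39.4 and 50.5 for plasma cells (4 of 8) and 165 and 129 for red pulp macrophages (9 of 11, with 2 higher and 5 lower). Of 10 markers of conventional dendritic cells 6 were measured, with 2 higher, Batf3 and Itgae, 1 lower and a median of 0.69. Their sum went from 73.6 to 33.6 through Clec10a, at -4.12, while the other 5 had positive differences. The part of these cells in the noncoding differences was not tested, and fewer cells of a type and less RNA per cell cannot be told apart in such a sample.

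AW112010 showed the largest difference of all bright noncoding probes. Its scaled signal was -1.49 on the sham array, so it passed the brightness limit through the 5/6Nx array and had to be higher there. This transcript is known to be induced in immune cells by inflammatory signals. Its probe gave 158 intensity units after sham surgery and 42033 after 5/6Nx, a difference of 7.75 or 215-fold. The neighbouring gene Ms4a8a, a member of the MS4A membrane protein family, read 38.4 and 454, a difference of 3.25. The sums of the interferon-stimulated genes and of the lymphocyte markers given above were higher in the same direction, and their part in this value was not tested. In the RefSeq sequence around the start of AW112010 (250 bases before to 50 after, GRCm38.p6, chr19:11050517-11050816, minus strand) a match to the NF-kappaB motif GGANTTTCC lies 70 bases before the start and is printed in capitals.
AW112010 promoter: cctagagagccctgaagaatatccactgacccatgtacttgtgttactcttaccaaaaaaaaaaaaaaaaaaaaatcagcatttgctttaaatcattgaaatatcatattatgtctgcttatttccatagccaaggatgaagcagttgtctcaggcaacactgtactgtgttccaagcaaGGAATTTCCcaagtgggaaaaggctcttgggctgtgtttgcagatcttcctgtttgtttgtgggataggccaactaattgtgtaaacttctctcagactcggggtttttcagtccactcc
This motif was found on either strand in 1.25% of 32851 RefSeq promoters of the same length.

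8430430B14Rik, a long noncoding transcript on chromosome 17, gave 79.4 (sham) and 6233 (5/6Nx), a difference of 5.99. Its nearest coding genes, all over 100 kb away, differed in the other direction, Haao by -1.64, Zfp36l2 by -1.81 and Mta3 by -0.37. H2-Q5, a class I pseudogene of the MHC, read 90.3 and 6986, a difference of 5.96. Its neighbours were H2-Q4, at 0.01, and H2-Q7, at 2.26. H2-K2, another class I pseudogene (chromosome 17, 34111920 to 34111979, mm9), read 20413 and 100741, a difference of 1.99, beside H2-K1, the classical class I gene, at 2.80. Class I genes are similar in sequence, and their probes may read more than 1 of them, although neither pseudogene probe shared 20 bases with another probe.

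The remaining 8 of the 12 largest differences upward ranged from 2.09 to 3.52, and 6 of them read under 300 on the sham array. 9030619P08Rik, a pseudogene beside the Ly6 gene Ly6l on chromosome 15, read 699 and 9947, a difference of 3.52. 1700097N02Rik read 154 and 1564, a difference of 3.04, and its neighbour Dnah8, a dynein heavy chain, differed by 2.76. 4933412E12Rik read 178 and 1613, a difference of 2.87, and Gm12216 read 197 and 1419.8, a difference of 2.54. Gm12216 lies near Irf1, an interferon-responsive transcription factor, which differed by 4.45, while Slc22a5, its nearest coding gene, differed by -0.45. 5430437J10Rik read 171 and 1158, a difference of 2.45, and its nearest coding gene Ptger4, a prostaglandin E2 receptor 252 kb away, differed by 1.75. 6530402F18Rik read 278 and 1879.5, a difference of 2.45. 2010016I18Rik, which overlaps the span of Dennd2d, read 221 and 1171, a difference of 2.09, and Dennd2d differed by 2.35. Marcksl1-ps4 read 934 and 6176, a difference of 2.42, and its coding parent Marcksl1 differed by 2.37. Of the 28 higher probes, 11 had a scaled signal under -1 on the sham array, so they passed the brightness limit through the 5/6Nx array, where they had to be higher. AW112010, 8430430B14Rik and H2-Q5, described above, are among them, as are E130102H24Rik and Mirt1, described below. Likewise 8 of the 31 lower probes had a scaled signal under -1 on the 5/6Nx array. They passed the limit through the sham array, so they had to be lower after 5/6Nx. E230029C05Rik, Rprl2, Rmrp, Firre and Slc8a1, described below, are among them.

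The largest difference downward was in F630028O10Rik, the long noncoding transcript whose span holds Mir223. It went from 5482 (sham) to 541 (probe on chromosome X, 93438848 to 93438907, mm9), a difference of -3.65 or 12.6-fold. Neutrophils are also known to be rich in this microRNA. Of their measured markers 3 were higher, Ly6g at 4.53, Camp at 2.18 and Lcn2 at 7.31, and 1 was lower, Mmp8 at -3.97. The sums were 273 and 316, most of it from Csf3r, and the part of neutrophils in this value was not tested. Mir22hg, which holds Mir22, read 6961 and 2567, a difference of -1.75, and Dleu2, which holds Mir16-1, read 953 and 377, a difference of -1.64. E130102H24Rik, which holds Mir101a, went the other way, at 149 and 425, a difference of 1.20. The remaining hosts of a hairpin on their own strand were within 2-fold, 2900076A07Rik with Mir1839 at 0.36, Snhg20 with Mir6516 at -0.05 and Snhg10 with Mir3069 at -0.09. Of these 7 hosts 3 were thus lower and 1 higher, while 8.29% of the 193 probes classed as long noncoding RNA were lower and 8.81% higher. The mature microRNAs themselves were not measured in the values used here.

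Coding genes around these hosts varied, and genes of microRNA processing were mostly within 2-fold. Of the genes near F630028O10Rik, Msn was measured on both arrays and differed by 0.21. Tlcd2, next to Mir22hg, differed by 0.13 and Wdr81 by -1.15, and Trim13, which overlaps the span of Dleu2, differed by 0.77. Of 15 measured genes of microRNA processing 3 were at least 2-fold lower and none was higher, against 9.76% lower and 11.8% higher over 21659 names with a probe of another accession. These were the argonautes Ago4, at -1.74, Ago3, at -1.09, and Ago1, at -1.05, whereas Ago2 differed by -0.27. Dicer1, which cuts the hairpin, differed by 0.63, with other probes as low as -1.01, and a dimmer probe of Dgcr8 was at -1.30. In the promoter sequence of F630028O10Rik (GRCm38.p6, chrX:96239676-96239975, plus strand) a match to the interferon response motif TTTCNNTTT, found in 10.6% of RefSeq promoters, lies 74 bases before the start, printed in capitals.
F630028O10Rik promoter: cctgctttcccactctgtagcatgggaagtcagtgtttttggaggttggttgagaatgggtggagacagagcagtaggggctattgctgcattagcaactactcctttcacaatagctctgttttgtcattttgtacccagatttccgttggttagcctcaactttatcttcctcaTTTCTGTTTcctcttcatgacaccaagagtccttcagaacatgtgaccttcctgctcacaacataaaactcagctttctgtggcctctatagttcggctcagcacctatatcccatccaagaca
The promoters of 8430430B14Rik, 1700097N02Rik, E230029C05Rik and Mir22hg, which belong to the 3 largest differences in each direction with a promoter in the table, held neither of these motifs nor the E box CACGTG (7.15% of promoters) or the AP-1 motif TGACTCA (5.2%). A match is only a run of letters, and the absence of a match says nothing about a factor.

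**Figure D2:**
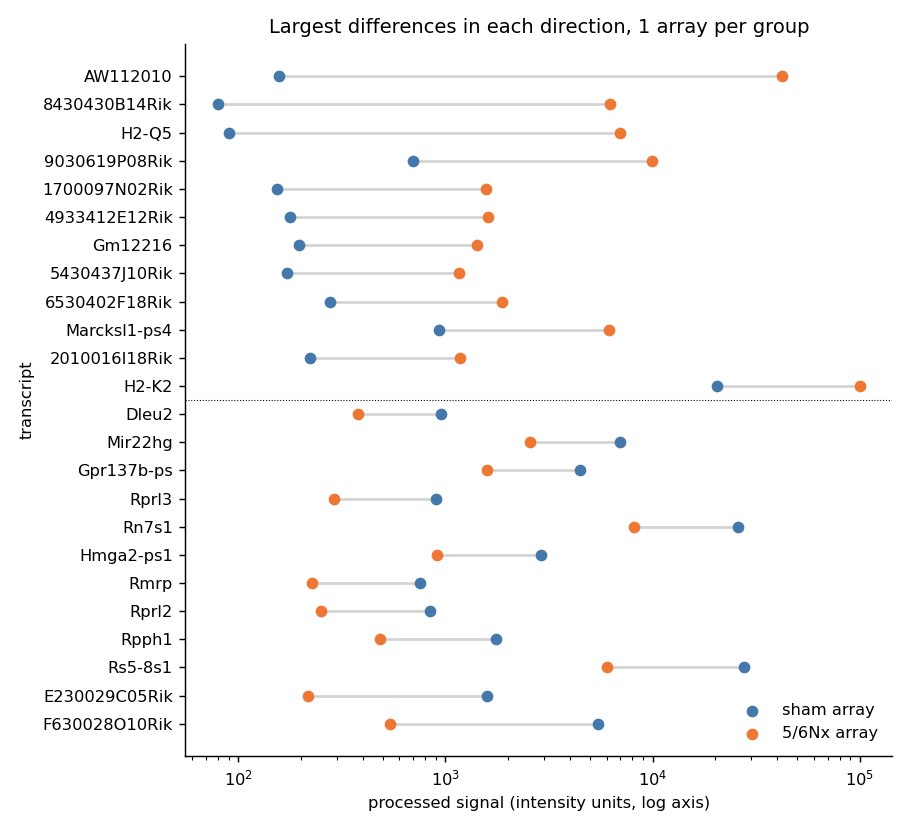
Processed signal (intensity, log axis) on the sham array (blue) and the 5/6Nx array (orange) of the 12 transcripts with the largest difference in each direction, 1 array per group. AW112010 spans from 158 to 42033, and F630028O10Rik, at the bottom, from 5482 down to 541.

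Structured RNAs were lower on the 5/6Nx array as a group. All 19 probes that the array annotation classes as RNase P RNA, RNase MRP RNA, ribosomal RNA, small nuclear, small nucleolar and small cytoplasmic RNA had a negative difference, with a median of -0.81, and 7 of 19 (36.8%) were at least 2-fold lower, against 11.2% of all bright probes. With spike-in scaling 15 of 19 were negative, 6 of them at least 2-fold lower, and the median was -0.37, and with loess 16 were negative. The probes of this group held more G and C, with a median of 55.0% against 41.7% for long noncoding RNA. The correlation of GC content with the difference was -0.16 over the 307 probes, which share both arrays, and -0.07 without the structured RNAs. Most of these RNAs carry no poly(A) tail, from which the labelling kit named in the labels primes, and the part of priming in these values was not tested.

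RNase P RNA, the catalytic RNA that trims the leader of precursor tRNAs, was lower on each of its 3 probes. Rpph1 read 1756 and 482, sham first, a difference of -2.17. Rprl2 read 840.5 and 251, a difference of -2.05. Rprl3 read 904 and 291, a difference of -1.95. The dimmer Rprl1 probe, which fell short of the brightness limit, read 249 and 84.3, a difference of -1.87. The printed Rpph1 probe shares no run of 20 bases with the others. Rmrp, the related RNA of RNase MRP, which cuts precursor ribosomal RNA, read 751 and 227, a difference of -2.04. The probes of Rprl2 and Rmrp passed the brightness limit through the sham array, so they had to be lower after 5/6Nx. Genes for the proteins of RNase P and RNase MRP differed less. Of 10 measured genes 1 was at least 2-fold lower, Rpp40 at -1.06, against 9.76% over 21659 names with a probe of another accession. Their median was -0.13, with Pop4 at 0.73 and Pop1 at -0.59.

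Rn7s1, the 7SL RNA of the signal recognition particle (chromosome 12, 70260492 to 70260551, mm9), read 25764.5 and 8129, a difference of -1.97. None of the 6 measured proteins of this particle was 2-fold apart, and they ran from Srp14 at -0.48 to Srp54a at 0.32. The shares over 21659 names with a probe of another accession were 11.8% higher and 9.76% lower. Rs5-8s1, a 5.8S ribosomal RNA, read 27547 and 6002, a difference of -2.51. The other probes of this class were among the brightest on the arrays and were closer together. Rn18s read 531254 and 513285, a difference of -0.36. Rn28s1 read 321083 and 251830, a difference of -0.66, and Rn4.5s read 362165 and 410090, a difference of -0.13. With spike-in scaling the sign of Rn18s and Rn4.5s turned, to 0.07 and 0.30.

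The 7 probes annotated as small nuclear RNA lay between -1.17 and -0.53. Rnu2-10, a U2 RNA of the major spliceosome, read 660 and 364, a difference of -1.17. The U1 probes Rnu1a1, Rnu1b1 and Rnu1b6 differed by -0.88, -0.82 and -0.81, but they share runs of up to 48 bases and do not count as separate measurements. Rnu12, of the minor spliceosome, differed by -0.66, Rnu3b1, a U3 RNA of ribosomal RNA processing, by -0.73, and Rn7sk, which holds back the elongation factor P-TEFb, by -0.53. Among small nucleolar RNAs Snora73a differed by -0.73, Snord17 by -0.31 and Snord33 by -0.02. Dimmer structured RNAs outside the brightness limit were mostly lower too, among them the telomerase RNA Terc, at 110 and 28.4, and Vaultrc5, a vault RNA, at 167 and 34.6.

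**Figure D3:**
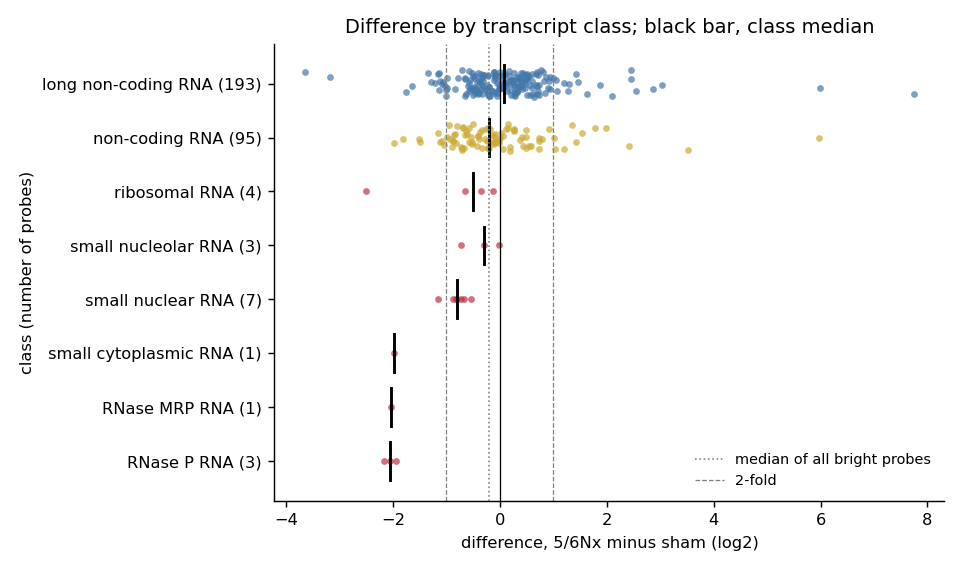
Difference (5/6Nx minus sham, log2) of each bright noncoding probe by transcript class as the array annotation gives it, with the number of probes per class, a black bar at the class median, dashed lines at 2-fold and a dotted line at the median of all bright probes (-0.20). The structured classes lie left of 0, and the long noncoding RNA and non-coding RNA classes spread to both sides.

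Transcripts that carry small nucleolar RNAs did not follow the structured RNAs. Their spliced remainders are known targets of nonsense-mediated decay. Of 15 probes for 13 of these host genes none was 2-fold apart, 12 had a positive difference and the median was 0.36, against -0.20 over all bright probes. Snhg8 read 3313 and 6686, a difference of 0.70, and Snhg6 read 894 and 1798, also 0.70. Both Snhg15 probes differed by 0.47 and 0.48, and both Gas5 probes by 0.35 and 0.41. Snhg7, the brightest, read 19793 and 31536, a difference of 0.36. Snhg12 differed by 0.38, Epb41l4aos by 0.49, Snhg5 by 0.21, Snhg9 by 0.17 and Snhg16 by 0.09. The negative ones were Snhg3 at -0.35, Snhg10 at -0.09 and Snhg20 at -0.05. With spike-in scaling all 15 were positive, 2 of them at least 2-fold. None of 14 measured decay factors was 2-fold apart, with a median of -0.04. The shares over 21659 names with a probe of another accession were 11.8% higher and 9.76% lower. Of 15 core and assembly proteins of small nucleolar ribonucleoproteins Znhit3 reached a 2-fold difference, downward, although its other probe was at 0.21, and the median was -0.25.

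Bright probes of nuclear scaffolds and imprinted transcripts were within 2-fold, with Firre as the exception. Firre, which anchors chromatin of the inactive X chromosome, read 400.3 and 213, a difference of -1.22, or -0.79 with spike-in scaling. The NR_ probe of Xist, of the same group, read 2.82 and 9.33 and was not well above background on either array. Neat1, the scaffold of paraspeckles, differed by -0.58 and -0.33 on its probes, and the second turned to 0.10 with spike-in scaling. Over 21659 names with a probe of another accession, 11.8% were at least 2-fold higher and 9.76% lower. By the brightest probe 1 of 14 measured paraspeckle proteins was 2-fold apart, Hnrnph3 at 1.13, and 1 of 12 proteins of X inactivation, Ezh2 at 1.04. Their other probes were as low as 0.44 and 0.25, dimmer probes of Ewsr1 and Hdac3 were at -1.12 and -1.04, and a dimmer Cpsf6 probe passed 2-fold upward. Norad, which binds Pumilio proteins, was the brightest of this group, at 20284 and 20066.5, a difference of -0.32, and its other bright probes differed by -0.39 and -0.21. Tug1 differed by -0.18 and the imprinted antisense transcript Airn by -0.22. Outside the brightness limit, a dimmer Airn probe read 19.8 and 46.2, a difference of 0.91, and a dimmer Norad probe was at -0.56. The 3 bright Norad probes, the bright Airn probe and Tug1 also turned positive with spike-in scaling. Kcnq1ot1, another imprinted antisense transcript, had 3 probes at 0.77, 0.64 and 0.51 and another at -0.48, the widest range of the 18 genes with several bright probes. With spike-in scaling 2 of its probes passed 2-fold, at 1.20 and 1.07. The median range over these genes was 0.17, and in 4 of them the probes differed in sign.

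**Figure D4:**
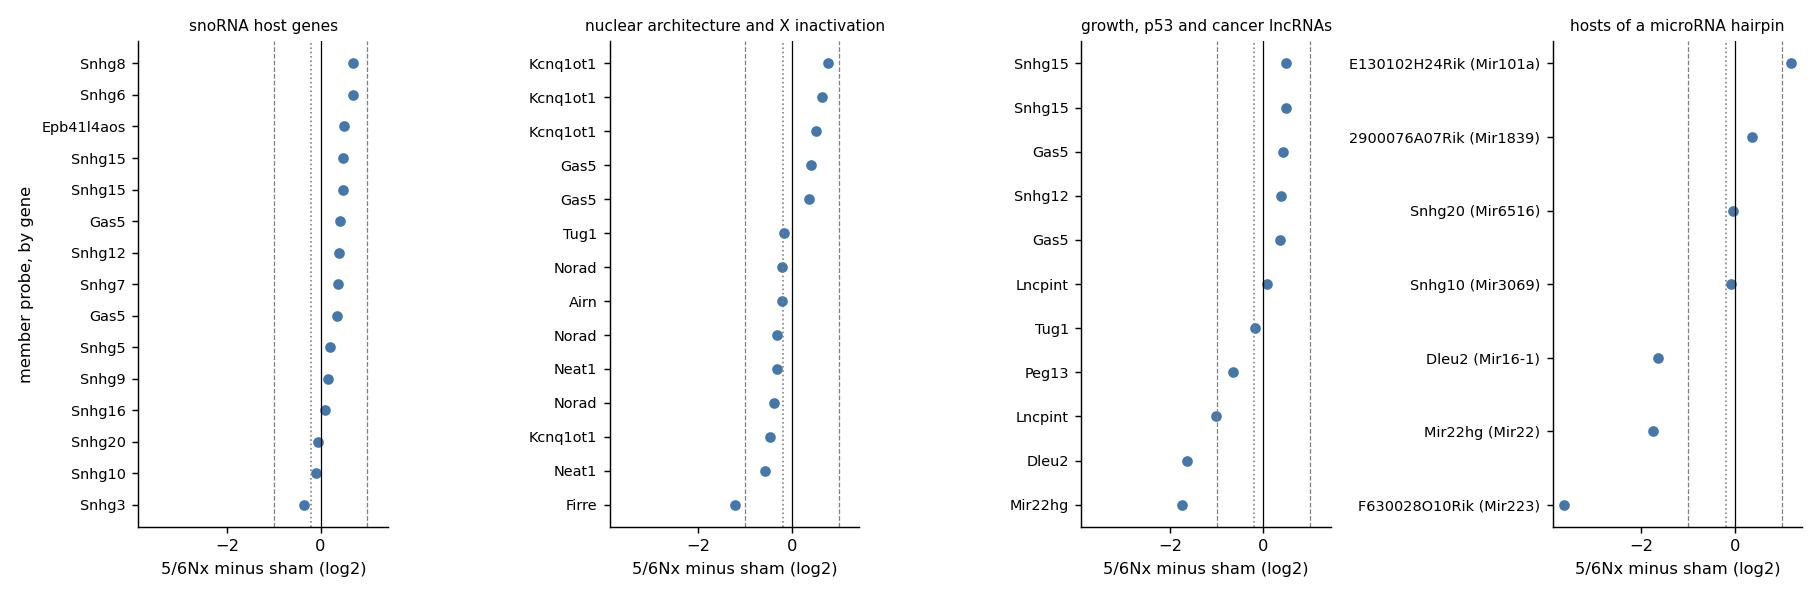
Difference (5/6Nx minus sham, log2, x axis) of each bright probe in 4 groups of noncoding transcripts, 1 point per probe, with dashed lines at 2-fold and a dotted line at the median of all bright probes. Host genes of small nucleolar RNAs lie within 2-fold and mostly above 0, and the hosts of Mir223, Mir22 and Mir16-1 lie below the 2-fold line.

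The list for immune cells also took in transcripts named for lying opposite a coding gene, which made up most of its probes. Of its 23 probes for 21 genes AW112010 was higher and 2 were lower, those of Mirt2 and a probe of Lncpint. Over all bright probes 9.15% were higher and 11.2% lower. The median of the list was 0.13, and it mostly describes the opposite-strand transcripts, which follow in the next paragraph. The members listed for an immune role were AW112010, Mirt2, Morrbid, Lncpint and Gas5. Of 11 probes for 8 growth control genes 3 were lower, those of Mir22hg, Dleu2 and Lncpint, and the median was 0.064. Mirt2, which is known to be induced by bacterial lipopolysaccharide and is listed as Gm10872 in the files, read 5103 and 3032, a difference of -1.06, or -0.63 with spike-in scaling, and Mirt1 read 148 and 493, a difference of 1.42. Morrbid, which sets the lifespan of myeloid cells, read 420.1 and 744, a difference of 0.52. A dimmer Morrbid probe outside the brightness limit read 103 and 262, a difference of 1.04. Lncpint, a p53-induced transcript, had a probe at 557 and 342, a difference of -1.01, and a brighter one at 1254 and 1624, a difference of 0.06. Peg13, an imprinted transcript, differed by -0.65. Gdap10, which lies within the span of Nampt, read 4252 and 14422, a difference of 1.45, and Nampt, an enzyme of NAD synthesis, differed by 1.44. Slfn10-ps, of the interferon-responsive Schlafen cluster, differed by 1.35 on a probe at 1191 and 3763 and by 0.16 on a dimmer one, while its neighbours Slfn8 and Slfn2 differed by 3.54 and 2.36.

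Transcripts named for lying opposite a coding gene were within 2-fold, although Hk1os passed it with median scaling, at -1.14, Tmem51os1 with loess and spike-in scaling, at 1.15 and 1.37, and Speer4cos with spike-in scaling, at 1.21. Among 17 such probes Hk1os was lowest, at 2534 and 1577, a difference of -0.99, and Tmem51os1 highest, at 825 and 1952, a difference of 0.93. Their partners did not differ alike: Hk1, the hexokinase, differed by -0.17 and Tmem51 by -0.34. Fbxl12os, the brightest, read 40465 and 67167, a difference of 0.42, beside Fbxl12 at 0.95. Zeb2os, opposite a transcription factor of the monocyte lineage, differed by 0.00, and Zeb2 by -0.09. Hoxb5os, Zbtb11os1 and Oip5os1 differed by -0.64, -0.60 and -0.47, and Rab26os, Phtf1os, Sp3os, Ggnbp2os and Pigbos1 lay between -0.09 and 0.19. Ttc39aos1, Fam120aos and Speer4cos differed by 0.55, 0.56 and 0.78. Over 146 long noncoding probes whose nearest coding gene was measured, the 2 differences correlated with a Pearson r of 0.16 and a Spearman rho of 0.11. The points share both arrays. Both were at least 2-fold apart in 14 cases, on the same side in 9.

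Pseudogene probes often read as their parent did. Gpr137b-ps read 4486 and 1585, a difference of -1.81, and Gpr137b, a lysosomal membrane protein with the shared 46 bases printed above, differed by -1.89. Gm6756 differed by 1.78 and shares 31 bases with a probe of Phgdh, the first enzyme of serine synthesis, at 1.84. The very bright Gm5523 shares 34 bases with a Gapdh probe and differed by -0.67, against -0.64 for that probe. In all, 42 of the 307 probes shared a run of at least 20 bases with a probe of another name, and for 41 of them the other probe was measured on both arrays. The differences of such pairs were a median of 0.05 apart, and 36 pairs were less than 0.2 apart. The widest gap was 0.67, between a Snhg15 probe and Utp6, and how far such probes read both transcripts was not tested. Without these 42 probes 27 were higher and 28 lower of 265, with a median of -0.05. Hmga2-ps1 was an exception among pseudogenes, at 2884 and 909, a difference of -1.97, beside Hmga2 at 0.33. Of 11 pseudogene probes named for a coding gene that was measured, 6 differed from it by less than 0.2.

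A few NR_ records matched, by accession, symbol or synonym, a gene that RefSeq counts as protein-coding. Some of them are classed as long noncoding RNA on the array and matched by name only. Whether these probes read a noncoding isoform or the coding transcript was not tested. Of these 24 probes 4 (16.7%) were lower and 1 (4.17%) was higher, against 11.2% and 9.15% of all bright probes. Slc8a1, the sodium-calcium exchanger, read 458 and 198, a difference of -1.51, Snrnp70, a protein of the U1 particle, differed by -1.16 and Etfb, an electron carrier of mitochondria, by -1.12. Ppp1r12b, a myosin phosphatase subunit, read 782 and 2794, a difference of 1.53. The other lower probe is listed as Gm29766 in the files, a synonym of Fbrsl1, at -1.12. E230029C05Rik, a long noncoding transcript on chromosome 7 with no role given here, had the second largest difference downward, at 1581 and 217, or -3.18. Its nearest measured coding gene Eed, a Polycomb subunit, differed by 0.14, and Picalm by -1.11.

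The 10 brightest probes, besides the 3 ribosomal RNAs and Gm5523, were Gm20753 at -0.21, Gm20751 at -0.78, Gm12070 at -0.62, Gm15772 at -0.23, Gm17821 at 0.50 and Gm8709 at -0.87. None of these 10 was 2-fold apart. By brightness, 8 of the 103 brightest probes were higher and 10 lower, 13 and 13 of the next 102, and 7 and 8 of the 102 dimmest. The members just above the limit of -1 were 2610507I01Rik, C030034I22Rik, Zbtb11os1, E130102H24Rik and Hoxb5os, each with a mean scaled signal of -0.97. Just below it were 3110056K07Rik at -1.02, Snhg1 at -1.02, Fam219aos at -1.03, 4930483O08Rik at -1.03 and A730063M14Rik at -1.04.

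**Figure D5:**
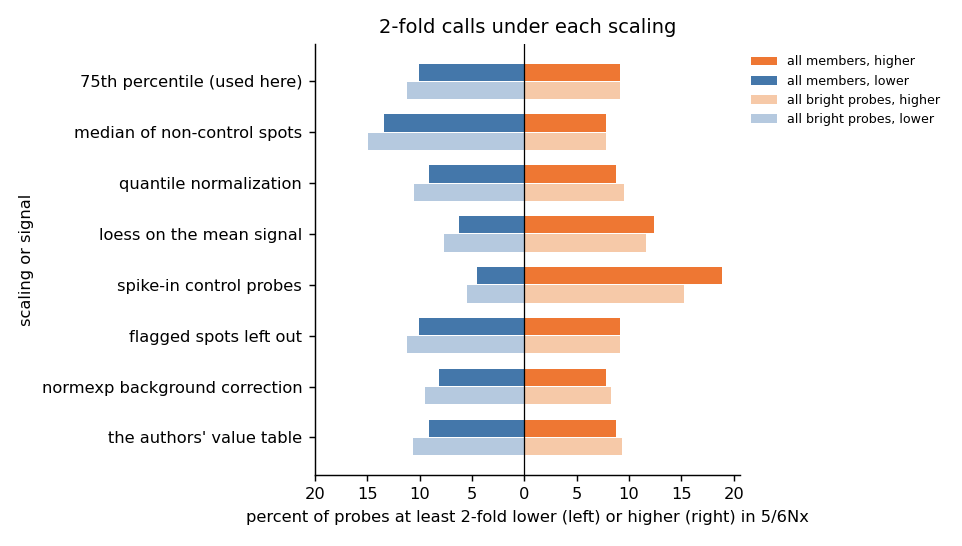
Percent of probes at least 2-fold lower (left) or higher (right) on the 5/6Nx array under each scaling or signal, for the 307 bright noncoding probes (dark bars) and all bright probes (light bars). The dark and light bars shift together, with the most higher calls under spike-in scaling (58 noncoding probes) and the most lower calls under median scaling (41).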

How the data were processed

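RNA of splenic monocytes was amplified with a Low Input Quick Amp kit and hybridised to 1-colour Agilent arrays, 1 sham and 1 5/6Nx array on 1 slide, per the labels and file headers. The scanner files deposited by the authors hold linear intensity values from Feature Extraction, background-subtracted and detrended within each array, with no scaling between arrays, per the file headers. Its version is 9.5.1.1 in the submitters' processing notes but 10.7.1.1 in the parameter block. The authors' value table, also intensity, had 75th percentiles of 410.4 and 410.3, with no normalization named in these sources.

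Each array was divided by its 75th percentile (442 and 548 in intensity units) before log2, and spots of a probe were averaged. With 1 array per group no test was run, a call is a 2-fold difference, and the number of arrays limits the precision. The SD over spots of a probe printed 10 times was 0.0604 on the sham array and 0.0524 on the other, which covers the spot only. Of 307 probes 302 were matched to RefSeq (GRCm38.p6), 287 by accession, and that table served for names and neighbours. Probe positions are mm9, and exon annotation was not used. The named genes are the 12 largest differences in each direction, the 10 brightest probes, 5 on either side of the brightness limit and all members of the gene lists. The members and lists were chosen with earlier results of these data known. The lists of RNase P and signal recognition particle proteins, neighbours, shared probe runs and NR_ records of coding genes were added after the values were seen. Alternatives were other scalings, normexp (limma 3.58.1, offset 50), the value table, values per gene and other brightness limits. The steps were tested on simulated data.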

Additional observations from a re-analysis of the deposited data

Results flagged for a closer look

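Probes with an NR_ accession that were well above background on a single array entered none of the comparisons above. On the 5/6Nx array only there were 190 such probes, and 42 of them were at least 2-fold above the bound that the sham array allows, which is the higher of the probe's own scaled signal and the lowest scaled signal of any probe well above background there. Gm15987 read 744 on the 5/6Nx array and was at least 46.1-fold higher, and Gm13546 read 687 and was at least 42.5-fold higher. Gm4759 was at least 25.8-fold higher. On the sham array only there were 63 probes, 23 of them at least 2-fold above the bound, led by Gm5086, which read 513 and was lower after 5/6Nx by at least 46.4-fold. The share called well above background was itself higher on the 5/6Nx array, at 67.0%, than on the sham array, at 63.0%. The counts on either side can therefore not be read as a trait of noncoding probes. These probes are given here as signal outside the members, with no spread between samples to set them against.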

How the results depend on the processing

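No paired analysis was possible because each group has 1 array, and no replicate could be left out. The median difference of the bright noncoding probes, -0.09, was -0.24 with median scaling, 0.13 with loess, 0.34 with spike-in scaling, 0.019 with no brightness limit and -0.23 with no filter on background. The count of lower probes, 31, was 19 with loess and 14 with spike-in scaling, and the count of higher probes, 28, was 58 with spike-in scaling. With no brightness limit 117 were higher and 83 lower of 961, and with no filter on background 336 and 236 of 2477. Quantile scaling, normexp, the authors' value table, the spots without a flag, values per gene and the limit of 0 left both counts within 1.5 times. Of 29 named probes at least 2-fold apart 25 stayed so on their side in all 9 alternatives that gave a value for a single probe. The dimmer Lncpint probe, at -1.01, turned to 0.064 when the brightest probe stood for the gene. AW112010 ranged from 7.27 with normexp to 8.18 with spike-in scaling, and 8430430B14Rik from 5.23 to 6.42 under the same settings.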
